A study of Rattus norvegicus and Mus musculus with 251 samples.

Results

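Fos, Fosb, Fosl2, Jun, Junb and Jund encode 6 subunits of the transcription factor AP-1, and their RNA is described here in the prefrontal cortex (PFC) and nucleus accumbens (NAc) of mice that drank saline or morphine. The 6 genes were picked by symbol among the 46078 gene identifiers of the mouse count table, and all 6 passed the filter on low counts in both regions. The study sequenced 251 mouse and rat brain libraries, and the 62 mouse libraries are used here. All mice carried the label of the inbred strain C57BL6J, and no genotype or allele was named that separated the groups. The control mice (Sal) drank saline solution, and the other groups drank morphine solution. The group Chronic mor was labelled for long-term morphine, and the groups Mor + 24h and Mor + 2W for intervals of 24 h and 2 weeks after it, as far as the labels spell this out. Age, morphine dose and length of drinking were not given in the sources used here. PFC was represented by 6 Sal, 8 Chronic mor, 9 Mor + 24h and 7 Mor + 2W libraries, and NAc by 7, 8, 9 and 8 libraries in the same order, with both sexes in every group. The RNA came from tissue punches of 0.5 mm, so that fewer cells of a type and less RNA per cell cannot be told apart in any of the values.

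AP-1 is a pair of proteins held together by leucine zippers, with adjoining basic regions that grip the DNA. Fos proteins bind DNA with a Jun partner, whereas Jun proteins can also pair with each other. Fos, Fosb and Junb are immediate early genes of neurons, transcribed within minutes of synaptic activity and then shut off again, while Jund is present at rest. In the striatum, a shortened FosB protein, deltaFosB, is known for building up during repeated exposure to drugs of abuse.

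The DNA-binding region is what the 6 genes share and where the Fos and the Jun genes part, so the coding bases of its core are shown for each member. They were read from the GENCODE M21 transcripts of GRCm38, run 5′ to 3′ along the coding strand, and carry in capitals the 9 codons that start at the asparagine codon of the basic-region signature.
Fos: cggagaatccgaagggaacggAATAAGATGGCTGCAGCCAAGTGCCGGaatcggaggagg
Fosb: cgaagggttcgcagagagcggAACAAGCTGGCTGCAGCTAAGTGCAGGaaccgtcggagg
Fosl2: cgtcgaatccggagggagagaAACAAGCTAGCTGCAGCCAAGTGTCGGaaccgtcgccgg
Jun: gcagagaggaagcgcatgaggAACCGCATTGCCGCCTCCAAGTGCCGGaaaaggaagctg
Junb: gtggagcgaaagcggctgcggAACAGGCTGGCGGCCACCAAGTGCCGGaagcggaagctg
Jund: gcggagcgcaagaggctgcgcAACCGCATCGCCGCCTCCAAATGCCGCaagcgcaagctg
Over these 60 bases, the Fos genes matched each other at 45 or 46 positions and the Jun genes matched each other at 45 to 47. A Fos and a Jun gene matched at 27 to 35 positions. Of the 20 residues encoded, 18 or 19 were shared among the Fos genes, 16 to 19 among the Jun genes, and 9 or 10 between the families.

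The Fos genes lie apart in the genome. In GRCm38, Fos (ENSMUSG00000021250) is at chr12:85473890-85477273 on the plus strand, Fosb (ENSMUSG00000003545) at chr7:19302696-19310051 on the minus strand and Fosl2 (ENSMUSG00000029135) at chr5:32135801-32157842 on the plus strand, each with 3 introns in its first listed transcript. The Jun genes have no intron in their first listed transcript. Jun (ENSMUSG00000052684) is at chr4:95049034-95052222 and Junb (ENSMUSG00000052837) at chr8:84974484-84978718, both on the minus strand, and Jund (ENSMUSG00000071076) is at chr8:70698949-70700616 on the plus strand. Each Jun gene overlaps another annotated gene, namely Junos for Jun, Prdx2 for Junb and Gm11175 for Jund. Whether counting used the strand is not given in the sources used here, so reads in those overlaps cannot be assigned with certainty.

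One stretch of Fosb bears on what its values can say. It is the 140 bases that the mRNA of deltaFosB lacks, at chr7:19305007-19305146 (GRCm38, minus strand), shown 5′ to 3′ along the transcript with its first 2 and last 2 bases in capitals.
Fosb: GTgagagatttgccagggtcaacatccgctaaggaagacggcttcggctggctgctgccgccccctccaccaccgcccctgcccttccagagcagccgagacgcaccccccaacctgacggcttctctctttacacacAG
Of 7 annotated Fosb transcripts, 2 skip it. The protein of Fosb-206, which is among those that skip it, has 237 residues where the full one has 338. The deposited counts are per gene, so every Fosb value below is the sum of FosB and deltaFosB mRNA.

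Library totals ran from 5182601 to 41532464 counts in PFC and from 22387525 to 43963295 in NAc. The lowest total belonged to PFC number 10 (Mor + 2W), where 21.1% of reads were not aligned, against at most 1.92% in the other PFC libraries. The samples carry the cell type label neuron, yet markers of astrocytes, microglia, oligodendrocytes and endothelial cells were detected in full (4 of 4 each) in both regions. The PFC and NAc libraries numbered 27 (Chronic mor) expressed the genes of the other sex than their label gives. BC023719, a gene that is no member, was either on (3.635 CPM or more, 37 libraries) or off (0.188 CPM or less, 25 libraries), and 30 of 30 same-numbered PFC and NAc libraries shared their state. Every Chronic mor library was on and every Mor + 2W library off, all Sal males were on and all Sal females off, and 7 of the 9 Mor + 24h libraries of each region were on. The state thus moved with the groups, and the stage calls of the members that it changes are given with and without it. Within a treatment and sex it varied only among the 5 males of 24 h in each region (3 on, 2 off), so every fit with the state as a covariate estimates its effect from those 5 libraries. The labels do not say that libraries came from separate animals, so p-values measure the spread between these libraries.

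In PFC, Fos and Junb fell 4.5-fold and 3.65-fold under chronic morphine, were still lower at 24 h and overlapped the saline range at 2 weeks. Fosl2 fell 1.60-fold under chronic morphine, and Fosb, Jun and Jund did not pass the test there. Values are log2 CPM, in which CPM is a gene's share of the scaled library total and each step of 1 doubles the level, and a difference passed the test when its edgeR p, Benjamini-Hochberg adjusted over all genes, was under 0.05. By that rule 3 of the 6 members fell under chronic morphine, where 0.417% of 17966 genes passed in either direction. At 24 h, 2 of 6 fell, against 0.0779% of all genes.

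**Figure D1:**
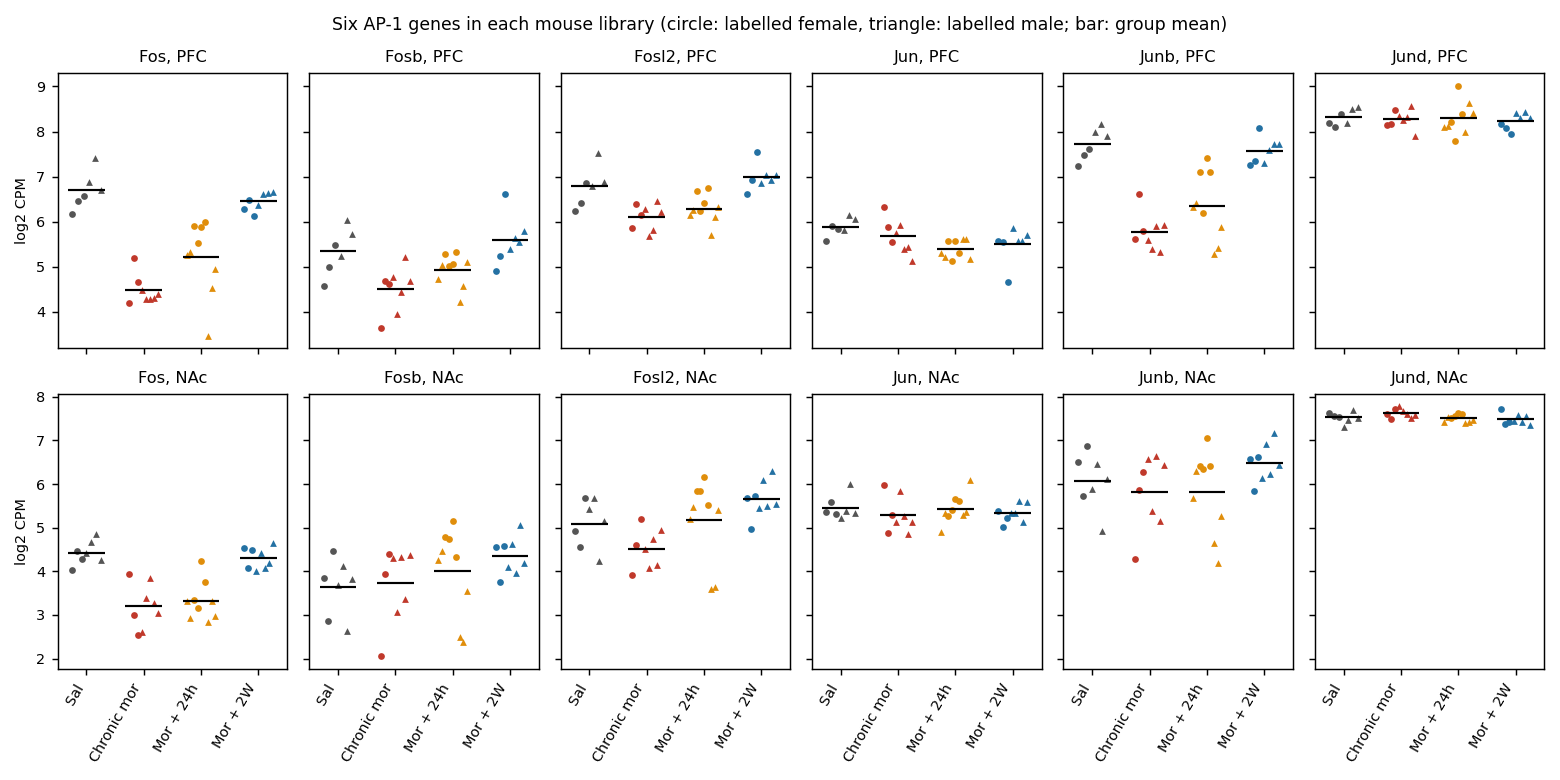
Level of each gene in each library (vertical axis, log2 CPM), with PFC in the upper row, NAc in the lower row and the 4 treatment groups along the horizontal axis; circles are libraries labelled female, triangles male, and bars group means. In PFC the 8 Chronic mor libraries lie below all Sal libraries for Fos and Junb, while the means of Jund lie close together in all 4 groups.

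Fos, the founding member of its family and the usual marker of recently active neurons, had log2 CPM from 6.16 to 7.40 in PFC Sal libraries, with a median of 6.64. Under chronic morphine the values ran from 4.20 to 5.20 with a median of 4.35, and at 24 h from 3.48 to 6.00 with a median of 5.33. At 2 weeks they ran from 6.13 to 6.65 with a median of 6.48. Both the chronic and the 24 h libraries were thus lower than every saline library, and the 2-week libraries lay among the saline ones. The chronic level was 4.5-fold below saline (log2 fold change -2.17 ± 0.19 SE, adjusted p = 1.1e-07). At 24 h the gap was 2.59-fold (log2 fold change -1.37 ± 0.18 SE, adjusted p = 8.7e-05). At 2 weeks the log2 difference was -0.27, which did not pass the test, with a 95% interval from -0.65 to 0.10. The 95% intervals given here are approximate, set from the SE by the normal distribution.

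Junb, a Jun protein induced by activity and a weaker activator than Jun, followed Fos. Its PFC log2 CPM spanned 7.25 to 8.17 in saline (median 7.75) and 5.34 to 6.61 under chronic morphine (median 5.71). At 24 h it spanned 5.29 to 7.41 (median 6.32) and at 2 weeks 7.25 to 8.08 (median 7.58). No chronic library reached the saline range, and 8 of the 9 libraries of 24 h were under it. Junb was 3.65-fold below saline under chronic morphine (log2 fold change -1.87 ± 0.20 SE, adjusted p = 7.1e-07) and 2.39-fold below at 24 h (-1.26 ± 0.19 SE, adjusted p = 0.00041).

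Fosl2, which encodes Fra-2, a Fos protein that lacks the strong activation domain of Fos, spanned 6.24 to 7.52 in PFC saline (median 6.82) and 5.69 to 6.46 under chronic morphine (median 6.17). The groups overlapped, with 5 of 8 chronic libraries under the lowest saline one. The fall was 1.60-fold (log2 fold change -0.68 ± 0.16 SE, adjusted p = 0.039). That call was lost when any 1 of 9 libraries was left out, namely Sal numbers 2, 3 and 6 or Chronic mor numbers 25, 27, 28, 29, 30 and 32, with adjusted p between 0.0501 and 0.188. At 24 h Fosl2 spanned 5.71 to 6.75 (median 6.26), a log2 difference of -0.48 ± 0.15 (SE) that did not pass.

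Fosb, the gene of FosB and deltaFosB, had PFC log2 CPM of 4.57 to 6.04 in saline (median 5.36), 3.65 to 5.23 under chronic morphine (median 4.65) and 4.21 to 5.34 at 24 h (median 5.04). Its chronic difference of -0.85 ± 0.23 (SE) had an adjusted p of 0.12 in edgeR and passed in DESeq2 (adjusted p = 0.031) and without the shallow PFC number 10 (0.014). At 2 weeks Fosb spanned 4.91 to 6.61 (median 5.54), overlapping the saline range. The top value came from PFC number 10, and the next was 5.80. Number 10 was also the highest 2-week library for Fosl2 (7.54) and Junb (8.08).

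Jun, the classical partner of Fos, spanned 5.56 to 6.15 in saline and 5.14 to 6.32 under chronic morphine in PFC, with medians of 5.87 and 5.65. Its log2 difference of -0.14 had a 95% interval of -0.42 to 0.15. At 24 h the values were 5.14 to 5.63 and at 2 weeks 4.65 to 5.87, where the lowest came from PFC number 10. Jun was nominally lower at both times (-0.48 ± 0.14 and -0.38 ± 0.15, SE) and did not pass (adjusted p = 0.49 and 0.85). Jund, the Jun protein of resting cells, had the steadiest group medians, 8.30, 8.28, 8.21 and 8.31 in saline, chronic, 24 h and 2-week libraries. Its single libraries varied more, from 7.79 to 9.02 at 24 h (SD 0.37, against 0.20 for Jun). The 95% intervals of its log2 differences lay between -0.38 and 0.28 at all 3 stages.

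At 2 weeks against saline, 0 of 6 members passed in PFC, where 0.00557% of genes did. Jun alone among the members had an unadjusted edgeR p under 0.05, as had 905 of 17966 genes, and DESeq2 called 0 of 6. The 3 comparisons with saline share the same control libraries and are therefore not independent of each other.

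**Figure D2:**
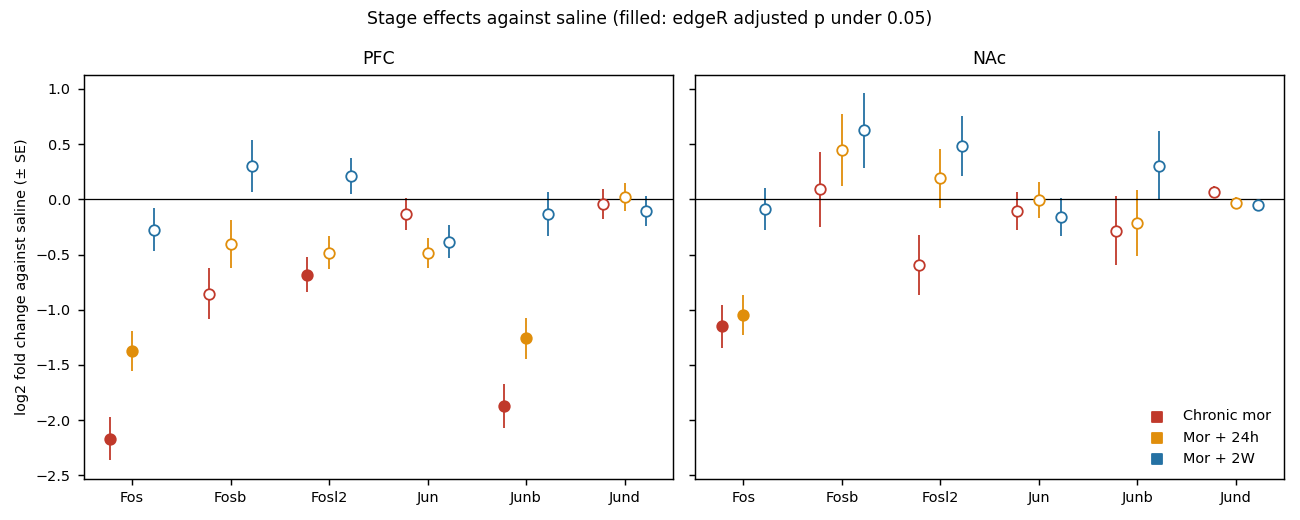
Log2 fold change of each gene against saline (vertical axis, with SE bars) in PFC (left) and NAc (right), coloured by stage; filled symbols passed the edgeR test. Fos is filled under chronic morphine and at 24 h in both regions, and no 2-week symbol is filled.

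The BC023719 state was read in 2 ways. Sal males and Chronic mor males were all on, and within males the chronic fall in PFC was 6.41-fold for Fos (log2 fold change -2.68 ± 0.25 SE, adjusted p = 3.0e-07), 5.16-fold for Junb (-2.37 ± 0.26, adjusted p = 1.4e-06) and 1.98-fold for Fosl2 (-0.98 ± 0.20, adjusted p = 0.030). Sal and Mor + 2W females were all off, and between them the log2 difference of PFC Fos was -0.09 ± 0.28 (SE) and that of Junb 0.15 ± 0.29 (SE). The shallow PFC number 10, 1 of those 3 Mor + 2W females, had the highest Junb of its group (8.08). With the state as a covariate, Fos and Junb still passed under chronic morphine in PFC (-1.73 ± 0.22 and -1.46 ± 0.23 SE, adjusted p = 0.00029 and 0.0022). They also passed at 24 h (-1.14 ± 0.18 and -1.04 ± 0.19 SE, adjusted p = 0.0041 and 0.022). Fosl2 had a difference of -0.61 ± 0.21 (SE) and no longer passed (adjusted p = 0.9999). At 2 weeks the same fit gave -0.71 ± 0.22 for Fos and -0.55 ± 0.23 for Junb (SE, adjusted p = 1 for both), further below saline than without the covariate and not past the test. In that fit 0.0612% of all genes passed under chronic morphine and 0.0501% at 24 h.

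In NAc, Fos was the only member that passed against saline. Its saline log2 CPM ran from 4.03 to 4.85 (median 4.41), and under chronic morphine from 2.55 to 3.94 (median 3.16). At 24 h the range was 2.83 to 4.23 (median 3.31) and at 2 weeks 4.02 to 4.64 (median 4.31). Every chronic library and 8 of 9 libraries of 24 h were under the lowest saline library. The fall was 2.22-fold under chronic morphine (log2 fold change -1.15 ± 0.19 SE, adjusted p = 0.0020) and 2.06-fold at 24 h (-1.05 ± 0.18 SE, adjusted p = 0.018). These are 1 of 6 members each, against 1.69% and 0.163% of 18382 genes. The 24 h call was lost without Sal number 2 (adjusted p = 0.061). At 2 weeks 0 of 6 members passed in edgeR, against 0.00544% of genes, and DESeq2 called 0. An unadjusted p under 0.05 was found for 0 members and 1183 of 18382 genes.

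With the state as a covariate, the NAc Fos differences were -1.10 ± 0.26 (SE, adjusted p = 0.049) under chronic morphine and -1.02 ± 0.22 (SE, adjusted p = 0.033) at 24 h, where 0.598% and 0.343% of genes passed. Among males alone, who were all on in the saline and chronic groups, NAc Fos fell by 1.30 on the log2 scale (± 0.24 SE, adjusted p = 0.034).

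Fosb passed at no stage in NAc. It spanned 2.63 to 4.47 in saline (median 3.83), 2.06 to 4.39 under chronic morphine (median 4.12), 2.38 to 5.14 at 24 h (median 4.33) and 3.76 to 5.06 at 2 weeks (median 4.38). Each group overlapped the saline group, and the log2 differences of 0.09 ± 0.34, 0.45 ± 0.33 and 0.62 ± 0.34 (SE) did not pass. The chronic interval of Fosb, -0.58 to 0.75, is wide enough to hold a moderate change in either direction. With the BC023719 state as a covariate, the chronic, 24 h and 2-week differences of Fosb were 0.83 ± 0.40, 0.80 ± 0.33 and -0.12 ± 0.40 (SE). These did not pass in edgeR either (adjusted p = 0.27, 0.21 and 0.98).

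Fosl2 in NAc spanned 4.23 to 5.69 in saline (median 5.15) and 3.93 to 5.19 under chronic morphine (median 4.56), a log2 difference of -0.60 ± 0.27 (SE, adjusted p = 0.30). At 24 h it spanned 3.60 to 6.16 (median 5.48) and at 2 weeks 4.98 to 6.29 (median 5.61). The 24 h spread was the widest of the 4 groups (SD 0.93). Junb spanned 4.92 to 6.88 in saline (median 6.13), 4.28 to 6.64 under chronic morphine (median 6.07), 4.18 to 7.06 at 24 h (median 6.29) and 5.85 to 7.17 at 2 weeks (median 6.51). Its chronic difference of -0.29 ± 0.31 (SE) did not pass. With the BC023719 state as a covariate, the chronic difference was -0.15 ± 0.34 for Fosl2 and 0.35 ± 0.38 for Junb (SE, edgeR adjusted p = 0.83 and 0.63). That of Junb thus changed sign without passing in either fit.

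Jun kept medians of 5.37, 5.20, 5.36 and 5.34 in saline, chronic, 24 h and 2-week NAc libraries, and Jund 7.55, 7.61, 7.51 and 7.44. Jund varied least, with an SD of at most 0.12 in any NAc group. The 95% interval of its chronic difference, -0.04 to 0.18, excludes a change of the size seen for Fos.

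NAc libraries differed widely in striatal markers, and Fosb, Fosl2 and Junb were higher where those markers were higher. The score was the mean log2 CPM of Drd1, Drd2, Adora2a, Ppp1r1b and Rgs9, genes of striatal projection neurons, all 5 of them detected. The summed level of those 5 markers ran from 108.1 to 3964 CPM over the NAc libraries, in ranges of 108.1 to 2525 in saline, 134.9 to 3964 in chronic, 429.8 to 3460 in 24 h and 1110 to 3282 in 2-week libraries. The lowest scores were 3.99 in Sal number 6, 4.26 in Chronic mor number 25 and 5.54 in Sal number 2. Next came the 24 h males numbers 23, 22 and 24 (5.76, 6.64 and 6.65), the same 3 that were on for BC023719, whose Fosb was 2.38, 2.50 and 3.54 where the other 24 h libraries, with scores of 7.23 or more, had at least 4.25. Number 24 also had the cortical marker Slc17a7 at 9.21, and the parts of state and punch in these values cannot be told apart. In the 3 lowest libraries Fosb was 2.63, 2.06 and 2.86, low in each case, whereas Jun was high at 5.99, 5.99 and 5.58.

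Correlations were computed over the 32 NAc libraries on deviations from the mean of each treatment and sex, with 100000 permutations within those cells and adjustment over the 6 members; the relation was chosen after seeing the data. The state was constant within each cell except among 24 h males. Fosb followed the score (Pearson r = 0.87, Spearman rho = 0.88, adjusted permutation p = 2e-05 and 3e-05), as did Junb (r = 0.86, rho = 0.86, adjusted permutation p = 2e-05 and 3e-05). These rest on the smallest p that the permutations can give, 1e-05. Fosl2 followed it too (r = 0.73, rho = 0.75, adjusted permutation p = 2e-05 and 4e-05). Without the 2 libraries farthest from the median score, r was 0.85, 0.83 and 0.69 for the 3 genes, so the relation did not rest on those libraries.

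Jun ran the other way (r = -0.65, rho = -0.56, adjusted permutation p = 0.0051 and 0.0075, r = -0.48 without the same 2 libraries). Fos had r = -0.50 and rho = -0.41 (adjusted permutation p = 0.032 and 0.055), and r fell to -0.32 without those 2 libraries, so that its relation rests largely on them. On deviations from treatment means, with the sexes together, r was -0.30 (adjusted permutation p = 0.16). Jund showed r = -0.06 and rho = 0.09 (adjusted permutation p = 0.81 and 0.67).

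**Figure D3:**
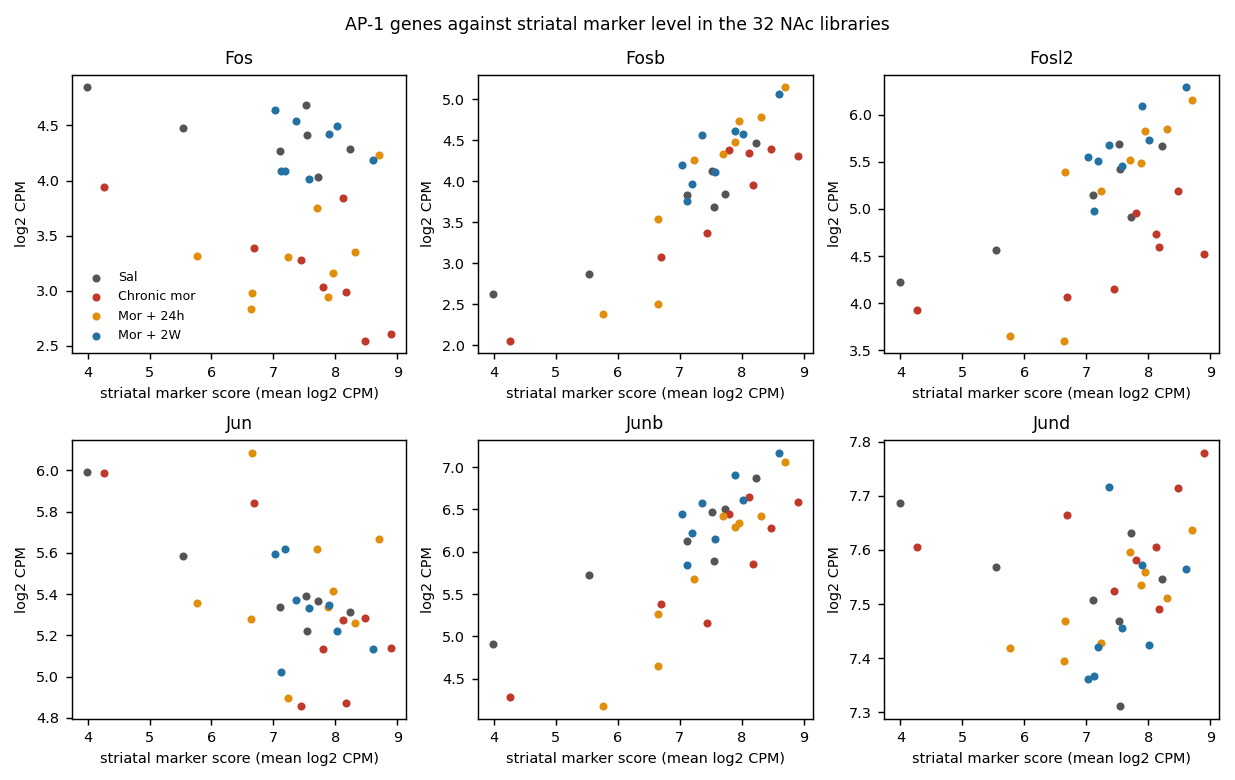
Log2 CPM of each gene (vertical axis) against the striatal marker score, the mean log2 CPM of 5 striatal genes (horizontal axis), in the 32 NAc libraries coloured by treatment. Fosb and Junb climb with the score, and 8 of 8 chronic and 8 of 9 points of 24 h for Fos lie below every saline point.

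With the striatal score as a covariate, an alternative chosen for these punches, 3 of 6 members were called under chronic morphine in NAc, where 3.69% of genes passed. Fos fell by 1.11 (± 0.17 SE, adjusted p = 0.00049), Fosl2 by 0.75 (± 0.19 SE, adjusted p = 0.023) and Junb by 0.61 (± 0.17 SE, adjusted p = 0.038) on the log2 scale. Fosb had -0.26 ± 0.18 (SE, adjusted p = 0.475). At 24 h, Fos remained the one member called (-0.93 ± 0.16 SE, adjusted p = 0.0061), against 0.375% of genes.

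Comparing the stages with each other leaves the saline libraries aside. In PFC, 4 of 6 members were higher at 2 weeks than under chronic morphine, where 0.824% of genes passed. These were Fos (3.72-fold, log2 fold change 1.90 ± 0.19 SE, adjusted p = 3.3e-07), Junb (3.32-fold, 1.73 ± 0.19 SE, adjusted p = 2.5e-06), Fosb (2.23-fold, 1.16 ± 0.23 SE, adjusted p = 0.0056) and Fosl2 (1.86-fold, 0.89 ± 0.15 SE, adjusted p = 0.00098). For Fos, Junb and Fosl2 all 7 of the 2-week libraries exceeded all 8 chronic ones, and for Fosb 6 of 7 did. Between 24 h and 2 weeks 3 of 6 rose, Fos (1.10 ± 0.18 SE, adjusted p = 0.0010), Junb (1.12 ± 0.18 SE, adjusted p = 0.0010) and Fosl2 (0.69 ± 0.14 SE, adjusted p = 0.029), against 0.15% of genes. The Fosl2 call at that step was lost when any 1 of 7 libraries was left out, namely Mor + 2W numbers 10, 13 and 15 or Mor + 24h numbers 19, 20, 22 and 23.

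All chronic libraries were on and all 2-week libraries off for BC023719, so stage and state cannot be told apart in a direct comparison of those groups. With the state as a covariate, 0 of 6 members passed between 2 weeks and chronic morphine in PFC and 0 of 6 between 2 weeks and 24 h. Against chronic morphine the log2 differences were 1.02 ± 0.33 for Fos, 0.91 ± 0.34 for Junb, 0.94 ± 0.46 for Fosb and 0.75 ± 0.31 for Fosl2 (SE). Without the covariate they were 1.90, 1.73, 1.16 and 0.89, so the sizes for Fos and Junb shrank more than those for Fosb and Fosl2, and the SE grew for all 4. Against 24 h they were 0.43 ± 0.27 for Fos, 0.49 ± 0.29 for Junb and 0.58 ± 0.26 for Fosl2 (SE). In the same fits 0 genes passed at all.

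From chronic morphine to 24 h, 0 of 6 members passed in PFC, with 0.0278% of genes called. Unadjusted p was under 0.05 for 4 members and for 906 of 17966 genes. DESeq2 called 1 member (Fos) and 0.195% of genes. Fos was 0.80 ± 0.18 (SE) higher at 24 h (adjusted p = 0.099), with 6 of 9 libraries above the chronic range and 1 below it. It passed without Mor + 24h number 22 (adjusted p = 0.0054) or without Chronic mor number 26 (0.045).

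In NAc, 2 of 6 members were higher at 2 weeks than under chronic morphine, Fos (2.09-fold, 1.06 ± 0.19 SE, adjusted p = 0.0015) and Fosl2 (2.11-fold, 1.08 ± 0.27 SE, adjusted p = 0.031), against 1.88% of genes. All 8 of the 2-week libraries exceeded all chronic ones for Fos, and 7 of 8 for Fosl2. The Fosl2 call was lost without any 1 of 7 libraries, Mor + 2W numbers 8, 10, 12 and 14 or Chronic mor numbers 25, 26 and 29. From 24 h to 2 weeks 1 of 6 rose, Fos (0.96 ± 0.18 SE, adjusted p = 0.0082), against 0.267% of genes. From chronic morphine to 24 h, 0 of 6 passed in edgeR and in DESeq2, and edgeR called 0.087% of genes. Unadjusted p was under 0.05 for 1 member (Fosl2) and for 1625 of 18382 genes. With the state as a covariate, neither Fos nor Fosl2 passed between 2 weeks and chronic morphine, where 0.0326% of genes did. Fos had 0.97 ± 0.40 (SE, adjusted p = 0.27), close to its value without the covariate but with a larger SE, whereas Fosl2 dropped to 0.20 ± 0.52 (SE, adjusted p = 0.88). Fosb and Junb, which passed in neither fit, had -0.95 ± 0.60 and -0.68 ± 0.56 (SE) with the covariate. From 24 h to 2 weeks Fos had 0.88 ± 0.34 (SE, adjusted p = 0.23), again near its value without the covariate, and 0.0435% of genes passed.

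In saline mice all 6 members were lower in NAc than in PFC, in a test over both regions that called 35.9% of 19266 genes. Fos was 4.92-fold lower (log2 fold change -2.30 ± 0.21 SE, adjusted p = 2.6e-13), Fosl2 3.13-fold (-1.65 ± 0.24 SE, adjusted p = 2.2e-07), Fosb 3.08-fold (-1.62 ± 0.32 SE, adjusted p = 4.1e-05) and Junb 2.91-fold (-1.54 ± 0.29 SE, adjusted p = 1.9e-05). Jund was 1.73-fold lower (-0.79 ± 0.11 SE, adjusted p = 5.6e-08). Jun differed least (-0.42 ± 0.17 SE, adjusted p = 0.043) and lost its call under 24 of the 63 fits that left out libraries and in DESeq2 (adjusted p = 0.062). Given how common region differences are, a call here says little about the 6 genes beyond their sizes.

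Whether the stage effects differed between regions was tested directly. Under chronic morphine 0 of 6 members passed, with 0.0311% of genes called, and 1 member (Junb) passed in DESeq2. Unadjusted p was under 0.05 for 3 members and for 820 of 19266 genes. Junb had the largest difference, a fall 1.60 ± 0.39 (SE) smaller in NAc on the log2 scale (adjusted p = 0.17), followed by Fos with 1.03 ± 0.28 (SE, adjusted p = 0.40). Junb passed in DESeq2 (adjusted p = 0.030), which called 0.0882% of genes. It also passed without NAc Chronic mor number 25 (0.036), the library with the second-lowest striatal score. A block on the library number, which the labels do not name as an animal, gave a Junb call too (1.56, edgeR adjusted p = 0.035). At 24 h 0 of 6 passed, with 0.0208% of genes called, and 0 in DESeq2. Unadjusted p was under 0.05 for 4 members and for 678 of 19266 genes. At 2 weeks 0 of 6 passed, with 0.00519% of genes called, and 0 members were called in DESeq2. Under an unadjusted 0.05 were 0 members and 874 of 19266 genes.

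Males and females were compared within saline and in each stage effect, for which each sex was set against its own saline libraries. In PFC saline, Fos was 0.62 ± 0.28 and Junb 0.57 ± 0.29 (SE) higher in males, and neither passed. These baselines enter the sex differences below. PFC number 27, 1 of the 3 Chronic mor libraries labelled female, expressed the genes of the other sex. In PFC, chronic Fos fell by 1.66 (± 0.29 SE, adjusted p = 0.0072) in females and by 2.68 in males, and Junb fell by 1.37 (± 0.30 SE, adjusted p = 0.041) in females and by 2.37 in males, on the log2 scale. The difference between the sexes was -1.02 ± 0.38 for Fos and -0.998 ± 0.39 for Junb (SE, adjusted p = 1 for both). None of the 6 passed there; edgeR called 0% of genes (478 at an unadjusted p under 0.05, 33 called by DESeq2), and 3 members were under an unadjusted 0.05 and 0 called in DESeq2.

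At 24 h the sexes lay further apart in PFC. Females had Fos values of 5.91, 5.53, 5.88 and 6.00, and males 5.26, 5.33, 3.48, 4.52 and 4.95. Junb was 7.10, 6.20, 7.41 and 7.11 in the females and 6.32, 6.41, 5.29, 5.41 and 5.89 in the males. For Fos the sexes did not overlap, and the last 3 males, numbers 22 to 24, were the lowest for both genes. Those 3 males were on for BC023719 and the other 2 off, while all 4 females were on.

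Against saline, 24 h Fos fell by 2.18 in males (± 0.25 SE, adjusted p = 4.4e-06) and was 0.56 ± 0.26 (SE, adjusted p = 1) lower in females. The sex difference in the 24 h effect was -1.63 ± 0.37 for Fos and -1.66 ± 0.38 for Junb (SE, adjusted p = 0.17 for both). Thus 0 of 6 passed in edgeR, with 0.0111% of genes called. Under an unadjusted 0.05 were 4 members and 484 of 17966 genes. DESeq2 called 2 members, Fos (adjusted p = 0.018) and Junb (0.024), against 0.145% of genes. Sex and state cannot be told apart in the saline groups, where males were on and females off.

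The other sex contrasts called 0 of 6 members in edgeR and in DESeq2. Within saline the background was 0.0445% in PFC (2 members under an unadjusted 0.05, Fos and Fosl2, both higher in males) and 0.141% in NAc (0 members). For the 2-week effect the background was 0% in PFC (909 genes and 1 member under an unadjusted 0.05, 18 genes in DESeq2) and 0% in NAc (826 genes and 0 members, 7 genes in DESeq2). For NAc it was 0.0544% in the chronic effect (1271 genes and 0 members under an unadjusted 0.05) and 0.087% in the 24 h effect (1181 genes and 1 member, Fos at -0.89 ± 0.37 SE). Leaving out the libraries numbered 27 changed 0 of these sex calls.

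Per length of transcript, Jund supplied the largest share of the RNA of the 6 genes. CPM per kb of the first listed transcript averaged 193 for Jund, 120 for Junb, 51.1 for Fos, 18.7 for Jun, 17.6 for Fosl2 and 11.3 for Fosb in PFC Sal libraries. Jun and Fosl2, neighbours in that order, overlapped (14.8 to 22.3 and 11.6 to 28.1), whereas the lowest Jund library (165.8) lay above every Junb library and the lowest Fos library (33.96) above every Fosl2 one (up to 28.1). In NAc Sal libraries the averages were 111.2 for Jund, 40.2 for Junb, 13.97 for Jun, 10.3 for Fos, 5.53 for Fosl2 and 3.55 for Fosb, and Jun averaged above Fos there, with ranges that overlapped (11.7 to 19.9 and 7.72 to 13.6).

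As shares of the summed CPM per kb of the 6, the Fos genes made up 19.1% ± 2.7 (SD, n = 6) in PFC saline, 10.6% ± 1.8 (SD, n = 8) under chronic morphine, 13.5% ± 3.5 (SD, n = 9) at 24 h and 19.8% ± 1.6 (SD, n = 7) at 2 weeks. All chronic libraries (8.56% to 13.1%) were under the saline range (15.9% to 23.9%). The Jund share averaged 47.4% in saline and 71.05% under chronic morphine, while its own level did not pass the test. In NAc the Fos genes held 10.5%, 6.81%, 8.99% and 11.8% in saline, chronic, 24 h and 2-week libraries, and the chronic values (5.58% to 8.08%) stayed just under the saline ones (8.13% to 12.8%). No test was run on the shares.

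**Figure D4:**
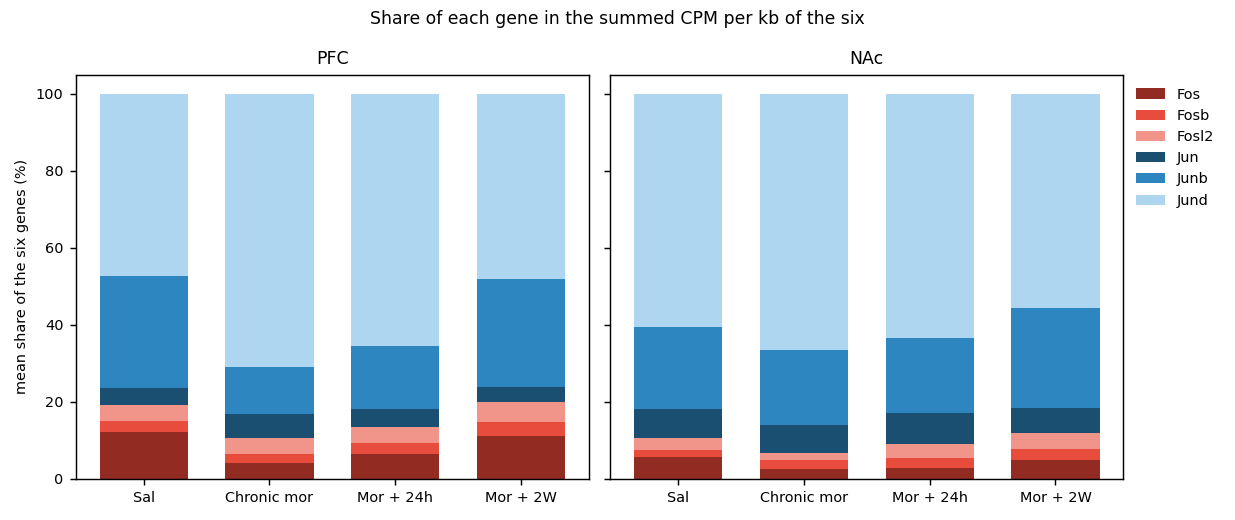
Mean share of each gene in the summed CPM per kb of the 6 genes (vertical axis, percent, from 0) by treatment in PFC (left) and NAc (right). Reds are Fos genes and blues Jun genes; in PFC the red part shrinks from 19.1% in saline to 10.6% under chronic morphine while the Jund part grows to 71.05%.

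Within groups, PFC Fos varied together with Junb, Fosl2 and Fosb. Over 30 PFC libraries, deviations of Fos from the treatment and sex means correlated with those of Junb (r = 0.69, rho = 0.66, adjusted permutation p = 0.0036 and 0.0083) and Fosl2 (r = 0.55, rho = 0.62, adjusted permutation p = 0.0072 and 0.0083). For Fosb the correlation was weaker (r = 0.44, rho = 0.54, adjusted permutation p = 0.049 and 0.025). Without the 2 libraries farthest from the median of Fos, r was 0.63, 0.51 and 0.36. In both regions the BC023719 state varied within a treatment and sex only among the 5 males of 24 h. In PFC the 2 off males averaged 5.30 for Fos and 6.37 for Junb, and the 3 on males 4.32 and 5.53. The part of the state in these correlations was not tested. Jun (r = -0.16, rho = -0.05) and Jund (r = 0.16, rho = 0.07) did not pass (adjusted permutation p = 0.52 and 0.80 for Jun, 0.54 and 0.80 for Jund).

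Over the 32 NAc libraries no relation of Fos passed with Fosb (r = -0.30, rho = -0.18), Fosl2 (r = -0.16, rho = -0.10) or Junb (r = -0.25, rho = -0.15), with adjusted permutation p from 0.44 to 0.80. Its relation with Jun had r = 0.42 (adjusted permutation p = 0.19) and rho = 0.52 (adjusted permutation p = 0.025), and r = 0.33 without 2 libraries. Jund had r = 0.01 and rho = 0.10 (adjusted permutation p = 0.95 and 0.80). These 10 relations were adjusted together.

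Between regions, same-numbered libraries were compared for each member over 30 numbers, again within treatment and sex. Junb was the 1 of 6 members that passed (r = 0.57, rho = 0.55, adjusted permutation p = 0.032 and 0.041, r = 0.60 without 2 numbers). Among the 24 h males, mean Junb was 6.37 in the off and 5.53 in the on libraries of PFC, and 5.99 and 4.695 in those of NAc. The part of the state in this relation was not tested. For Fos, r was 0.03 and rho 0.07 (adjusted permutation p = 0.88 and 0.74). The remaining 4 had r from 0.17 for Fosl2 to 0.33 for Fosb, with rho from 0.14 to 0.33 and adjusted permutation p from 0.26 to 0.64.

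Of the wider AP-1 family, Atf3 in NAc was the one gene that passed in edgeR, 1 of 13 tested under chronic morphine against 1.69% of genes. The list held 14 genes, of which 13 were tested in each region, and 0 passed in PFC at any stage in edgeR. Under chronic morphine, at 24 h and at 2 weeks, 5, 3 and 1 had an unadjusted p under 0.05. Over all genes 1422, 541 and 905 of 17966 did. DESeq2 called 3, 0 and 0 of the list, against 0.965%, 0.257% and 0.0279% of genes. Atf3, a repressor induced by stress, had a chronic log2 difference of -1.83 ± 0.49 in PFC (SE, adjusted p = 0.12) and fell by 1.202 (± 0.30 SE, adjusted p = 0.036) in NAc. With the state as a covariate 0 of 13 passed in NAc under chronic morphine, against 0.598% of genes. Atf3 was scarce, with at most 94 counts in any library. Atf4, the effector of the integrated stress response, had -0.51 ± 0.13 in PFC (SE, adjusted p = 0.095), and Jdp2, a Jun partner that represses AP-1 sites, 0.01 ± 0.14 (SE). Fosl1, which encodes Fra-1, had at most 26 counts per library. In NAc at 24 h and 2 weeks 0 of 13 passed in edgeR and in DESeq2. Under an unadjusted 0.05 were 5 and 1 of the list, against 2218 and 1183 of 18382 genes.

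Other immediate early genes fell in PFC alongside Fos and Junb. Of 23 listed and tested, 15 were lower and 0 higher under chronic morphine, with a median log2 fold change of -1.07 against 0.01 over all genes, and 7 were lower at 24 h (median -0.67). Over all genes 0.417% and 0.0779% passed. With the BC023719 state as a covariate, 7 and 6 of the 23 were lower, against 0.0612% and 0.0501% of genes. Egr2, a zinc finger factor, fell by 3.35 (± 0.32 SE, adjusted p = 1.7e-07) and Ccn1, a secreted matrix protein, by 2.35 (± 0.23 SE, adjusted p = 2.2e-07) under chronic morphine. At 24 h they fell by 1.75 (± 0.28 SE, adjusted p = 0.0020) and 1.98 (± 0.22 SE, adjusted p = 8.7e-06). In NAc, 2 of 23 fell under chronic morphine, Atf3 and Btg2 (-0.56 ± 0.13 SE, adjusted p = 0.021), against 1.69% of genes. With the state as a covariate 0 passed, against 0.598% of genes. Without the covariate DESeq2 called 4, all lower, against 3.76% of genes. With the striatal score as a covariate 8 were called, all lower, against 3.69% of genes, and 1, lower, at 24 h against 0.375%. Without the score, 0 of 23 passed in NAc at 24 h in edgeR, and DESeq2 called 1, as higher, against 0.718% of genes. Under an unadjusted 0.05 were 6 of 23, against 2218 of 18382 genes. At 2 weeks 0 passed in either region in edgeR or DESeq2. Under an unadjusted 0.05 were then 1 in PFC and 2 in NAc, against 905 of 17966 and 1183 of 18382 genes. Atf3 and Maff are in both lists.

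No gene upstream of the members passed. Of 23 genes on the way to the Fos promoter, among them Srf, Elk1, Creb1 and the ERK kinases, 0 passed in either region at any stage in edgeR or DESeq2, with 1 to 4 under an unadjusted 0.05. Over all genes, 541 to 1422 of 17966 in PFC and 1183 to 2785 of 18382 in NAc were under an unadjusted 0.05 in edgeR. At most 1.69% of all genes passed in edgeR and 3.76% in DESeq2. With the state as a covariate 0 passed too, but 13 of 23 in NAc under chronic morphine (median log2 fold change 0.32, against -0.02 over all genes) and 9 of 23 at 24 h (0.31) had an unadjusted p under 0.05. The share of all genes under 0.05 in that fit is not given here. Its state effect comes from the 24 h males, whose on libraries had lower striatal scores (5.76 to 6.65) than the off ones (7.23 and 7.89). With the striatal score as a covariate 0 passed, and 5 of 23 (median 0.01) and 2 of 23 (0.05) were under an unadjusted 0.05. The 12 genes of the JNK pathway, whose kinases phosphorylate Jun, likewise had 0 calls in both tools and 0 or 1 under an unadjusted 0.05. Of the reported FosB or AP-1 targets in striatum, such as Cdk5, Gria2 and Pdyn (12 tested in PFC, 11 in NAc), 0 passed in edgeR at any stage with 0 or 1 under an unadjusted 0.05, and DESeq2 called 1, in NAc under chronic morphine. Among 11 clock output genes, Per1 fell by 1.11 under chronic morphine in PFC (± 0.14 SE, adjusted p = 3.0e-05) and lost its call with the state as a covariate, where 0 of 11 passed. Nr1d2 rose in NAc by 0.32 (± 0.05 SE, adjusted p = 0.0015) under chronic morphine and by 0.28 (± 0.05 SE, adjusted p = 0.018) at 24 h. In the remaining 3 comparisons 0 clock genes passed in edgeR or DESeq2, with at most 3 under an unadjusted 0.05.

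The genes most like Fos within groups were named by the correlation of their deviations with those of Fos, as a description. In PFC, over 30 libraries and 12880 genes, they were Egr2 (r = 0.78), Per1 (0.77), Nln (0.77), P4ha1 (0.77) and Bhlhe40 (0.76). In NAc, over 32 libraries and 13104 genes, they were Med31 (r = 0.73), Supt3 (0.72), Msto1 (0.69), Os9 (0.67) and Psme1 (0.67), so no gene was in both sets of 5. Fosb and Fosl2 were nearest to each other in PFC (r = 0.92), Junb nearest to Dusp1 (0.92), Jun to Kcna6 (0.85) and Jund to Bscl2 (0.93). In NAc, Fosb and Junb were both nearest to Egr4 (0.97 each), Fosl2 to Nr4a3 (0.94), Jun to Slc44a5 (0.83) and Jund to Dmap1 (0.80). Libraries share depth and punch composition, which enter each of these values. The BC023719 state also varied among the 24 h males, and its part was not tested.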

How the data were processed

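The authors deposited raw counts per mouse gene, whole numbers with 1 column per library. Per the submitters' processing notes, FastQC, cutadapt, STAR, RSEM, Trimmomatic, HISAT2 and the builds GRCm38 and Rnor_6.0 were used for the series, without roles; per the labels' protocols, libraries were total RNA read as pairs of 75 bases. Entries for unassigned reads were removed before library sizes were summed. Relative to reads counted to genes plus these entries, medians were 5.36% outside genes and 13.7% aligned to several places in PFC, and 5.47% and 15.3% in NAc. Rat libraries were not used here. Genes were fitted by region with edgeR 4.0.16 (R 4.3.3, limma 3.58.1, TMM scaling, filterByExpr) on treatment by sex, averaged over the sexes, and over both regions for region contrasts. The log2 CPM values used a prior count of 2. The members and lists were chosen with earlier results of these data known. From each list, the 2 called genes with the largest fall and the 2 with the largest rise per comparison are named, and any gene of the AP-1 list may be. Other settings tried were size factors by median of ratios, fits without the low-count filter, DESeq2 1.42.0, marker scores as covariates, a block on the library number and leaving out each library; the BC023719 state, leaving out number 27 and the striatal correlation were added after seeing the data. One striatal marker gene was left out of the score and is not reported here. The test code was checked on simulated data.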

Additional observations from a re-analysis of the deposited data

Results flagged for a closer look

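Of 48 groups of libraries tested for a value far from the others (6 genes, 2 regions, 4 treatments), 3 stood out, and chance alone flags about 1 in 20. In PFC, Chronic mor number 26 had log2 CPM of 5.20 for Fos, where the next library had 4.66, and 6.61 for Junb, where the next had 5.94. Both values were the highest of their group and still under the saline range. PFC number 10 (Mor + 2W) had 4.65 for Jun, where the next library had 5.54; it is also the shallowest library, and the part of its depth in that value was not tested.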

How the results depend on the processing

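Over 4508 recomputed values of single genes and correlations, 4424 kept their direction, where called, and their side of the threshold, 66 lost a call, 18 gained one and 0 called values changed sign. With the BC023719 state as a covariate, 18 stage differences of members that passed in neither fit changed sign. For counts of called members, no filter gave 1 and DESeq2 gave 1 in PFC at 24 h against chronic morphine, in place of 0, and leaving out 1 library gave 0 to 1. For the sex difference in the PFC 24 h effect, no filter gave 2 and DESeq2 gave 2, in place of 0. DESeq2 called 0.195% of all genes in PFC at 24 h against chronic morphine and 0.145% for that sex difference. With the striatal score as a covariate, NAc chronic morphine against saline had 3 in place of 1, and NAc 2 weeks against chronic had 4 in place of 2. In that fit 3.69% and 4.44% of all genes passed, against 1.69% and 1.88% without the score. Microglial and endothelial scores gave 0 in place of 1 for NAc 24 h against saline, with Fos at -0.97 ± 0.20 (SE, edgeR adjusted p = 0.077) and so about as large a fall; leaving out 1 library gave 0 to 1. Leaving out 1 library gave 1 to 2 for NAc 2 weeks against chronic. With the BC023719 state as a covariate, PFC 2 weeks against chronic (4) and against 24 h (3), and NAc 2 weeks against chronic (2) and against 24 h (1), all had 0. In these fits 0% of all genes passed in PFC, and 0.0326% and 0.0435% in NAc. The NAc Fos differences, 0.97 ± 0.40 and 0.88 ± 0.34 (SE), were close to 1.06 ± 0.19 and 0.96 ± 0.18 without the covariate. Jun in saline lost its region call with median-of-ratios size factors (adjusted p = 0.069) and without the filter (0.065), both in edgeR. Over all genes, edgeR called 0.417% and DESeq2 0.965% in PFC under chronic morphine, and 1.69% and 3.76% in NAc. For these changes the cause was not tested.

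The replicate numbers do not pair the libraries by the labels: over 30 same-numbered pairs, deviations correlated at 0.0077 to 0.22 (median 0.068), 5 pairs were over 0.1, and 25 correlated best with their own number. With the replicate block, 1 member was called for the region difference in the chronic effect, Junb at 1.56 (edgeR adjusted p = 0.035), in place of 0; DESeq2 also gave 1, and leaving out 1 library gave 0 to 1. Fosl2 in the PFC chronic contrast had an edgeR adjusted p of 0.060 with microglial and endothelial scores. The lowest count of any member in a library was 130 (Jun, PFC number 10), so depth limits the members little.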
